A study of Mus musculus with 9 samples.

Results

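A set of 10 genes of the interleukin-6 (IL-6) pathway was followed in livers of mice injected with acetaminophen (APAP). They are the ligand Il6, the receptor chains Il6ra, Il6st, Lifr and Osmr, the kinases Jak1 and Jak2, the transcription factor Stat3 and the inhibitors Socs1 and Socs3. They were found by gene symbol, and all 10 were present among the 16857 genes of the deposited FPKM table (fragments per gene, scaled by gene length and by the library's depth). Of these, 8 had at least 1 FPKM in at least 2 libraries and were tested, among 10451 genes that passed this filter, and Il6 and Socs1 did not pass it.

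RNA of whole liver was sequenced in 9 libraries of 4 groups. KO-Leo (2 libraries) is labelled Adipor2 knock-out with APAP then Leo, the alkaloid leonurine, which the series title calls SCM-198. KO-saline (2 libraries) is labelled Adipor2 knock-out with APAP then saline, WT-Leo (2 libraries) is wild type with APAP then Leo, and WT-saline (3 libraries) is wild type with APAP then saline. Every mouse had received APAP, a drug that kills hepatocytes at high dose, so no library is from a mouse without APAP. No measure of injury was used here. The sources used here give no dose, time, sex, age, strain or construction of the knockout. They do not say either that each library is its own mouse, so the p-values measure the spread between libraries, which may be technical. The design asks whether leonurine acts on the liver after APAP through the adiponectin receptor Adipor2.

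Depth was alike across libraries, from 35316653 to 38996734 fragments recovered from the deposited values. Adipor2 itself was at 75.75 and 84.95 FPKM in KO-Leo, 70.13 and 75.99 in KO-saline, 78.52 and 88.16 in WT-Leo and 125.8 to 140.8 in WT-saline. Which exons were removed is not stated, so these transcript levels do not check the genotype and the knockout is called labelled. The KO-Leo libraries also held 0 and 2 fragments of 4 Y-linked genes (Ddx3y, Eif2s3y, Kdm5d and Uty), against 4154 to 5275 in the other 7 libraries, so that in each comparison with KO-Leo a difference in sex cannot be told apart from genotype or treatment. On the first principal component, which held 38.3% of the variance, the WT-Leo libraries were at 26.4 and 52.2, the KO-Leo libraries at -35 and -18.1, and the other 5 between -10.4 and -0.8. The liver label was matched by its markers, with the 6 hepatocyte markers summing to between 33480 and 81570 FPKM in every library.

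IL-6 binds its receptor chain (the product of Il6ra), and this pair engages the shared signalling chain gp130, the product of Il6st. The kinases JAK1 and JAK2 bound to gp130 then phosphorylate STAT3, which enters the nucleus and, in hepatocytes, turns on genes of the acute phase response. Leukemia inhibitory factor and oncostatin M reach the same chain through partner receptors encoded by Lifr and Osmr. SOCS3, itself a target of STAT3, binds gp130 and the kinases and shuts the signal off, while SOCS1 acts as a similar brake that is also induced by interferons.

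In wild-type livers, Socs3, Osmr and Stat3 were higher and Lifr was lower in WT-Leo than in WT-saline, and in the labelled knockouts none of the 8 tested genes passed the test between leonurine and saline. Socs3 averaged 39.72 ± 8.07 FPKM in WT-Leo (SD, n = 2) and 6.174 ± 1.4 in WT-saline (n = 3), and Osmr averaged 5.912 ± 0.451 and 0.9591 ± 0.234 FPKM in the same groups. Stat3 averaged 68.23 ± 0.577 FPKM in WT-Leo and 37.33 ± 4.82 in WT-saline, and Lifr 13.47 ± 7.53 and 31.43 ± 5.35. Between WT-Leo and WT-saline, 3 of the 8 tested genes were called higher and 1 lower at an adjusted p under 0.05 (limma), where 1.9% of all tested genes were called higher, 4.72% lower and 6.62% in either direction. That split of all genes, 199 higher and 493 lower, moved to 339 and 408 with median-ratio scaling and 402 and 435 with quantile normalization. The values of 7 of the 8 did not overlap between WT-Leo and WT-saline, against 47.0% of all genes tested.

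**Figure D1:**
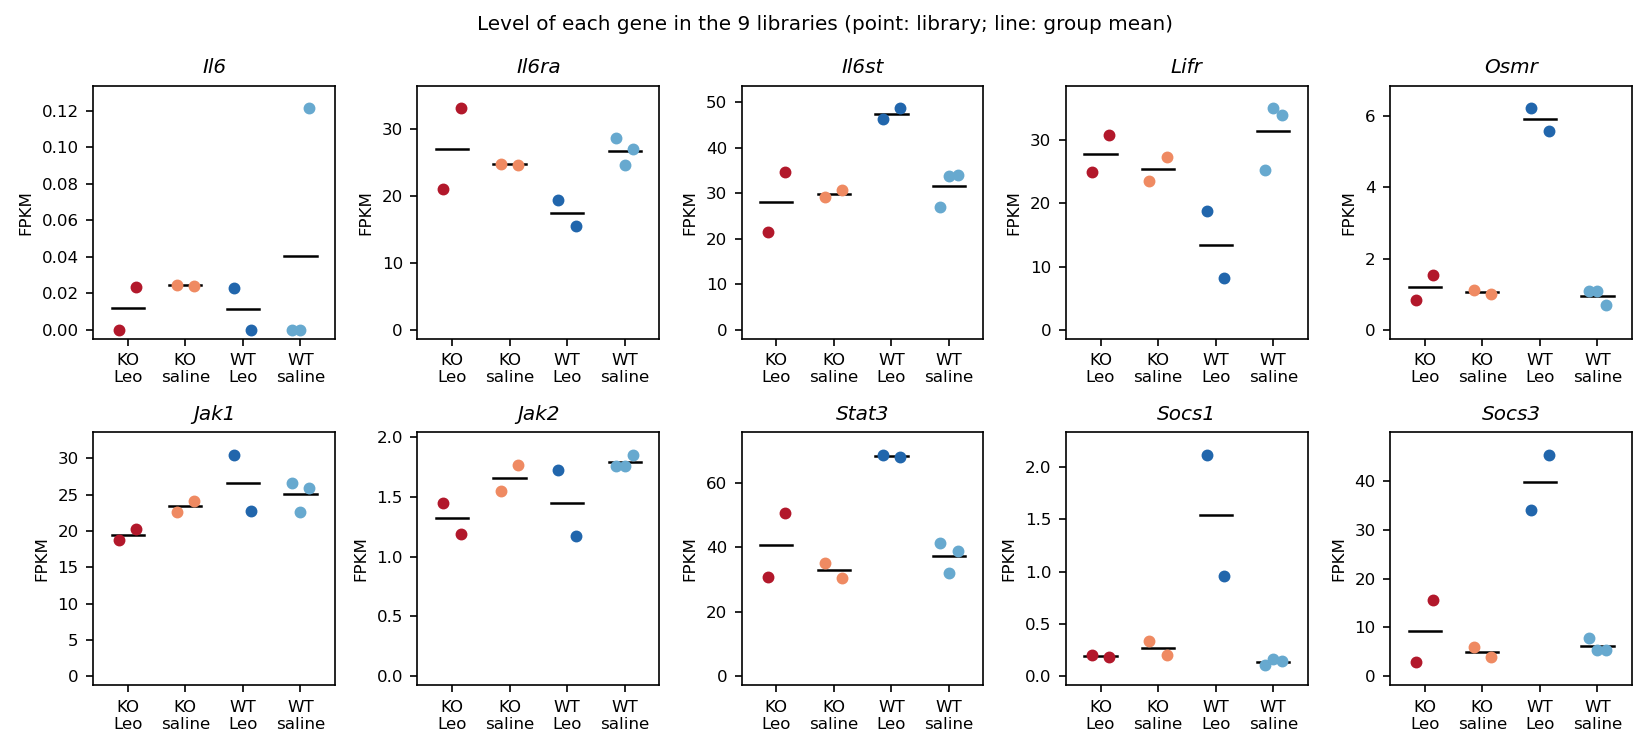
FPKM of the 10 genes (y axes, linear, a scale for each gene) in KO-Leo, KO-saline, WT-Leo and WT-saline, with 1 point a library and a line at the group mean. Osmr, Socs1, Socs3, Stat3 and Il6st lie higher in both WT-Leo libraries than in the other 7, and Lifr and Il6ra lie lower, while KO-Leo replicate 2 stands above KO-Leo replicate 1 for Socs3 (15.58 against 2.815 FPKM).

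The ligand was barely detected. Il6 had 0 and 1 fragments in KO-Leo, 1 and 1 in KO-saline, 1 and 0 in WT-Leo and 0, 0 and 5 in WT-saline, counted up to 1 whole-number factor per gene. The limit that a count of 0 allows, 3 fragments, was worth 0.0678 to 0.0737 FPKM in the libraries where Il6 was above 0, and 8 of the 9 libraries lay below that limit. No difference in Il6 was detectable at this depth, in RNA of liver alone, and IL-6 protein or IL-6 made in other tissues was not measured.

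The receptor chains were next. Osmr (chr15:6813577-6874969, minus strand), the chain that pairs with gp130 for oncostatin M, was at 6.231 and 5.593 FPKM in WT-Leo, against 1.093, 1.095 and 0.6894 FPKM in WT-saline. Osmr in the labelled knockouts was at 0.8465 and 1.545 FPKM in KO-Leo and 1.117 and 0.9983 in KO-saline. Both WT-Leo libraries thus stood apart from the other 7, which overlapped among themselves. Osmr rose by 1.82 ± 0.17 (SE) on log2(FPKM + 1) in WT-Leo (adjusted p = 0.00121), 6.16 times the WT-saline mean in FPKM. It was the only one of the 8 whose response to leonurine was called different between genotypes (labelled knockout minus wild-type response -1.75 ± 0.26, adjusted p = 0.00948, where 3.74% of genes were called, 1.71% higher and 2.03% lower, a split of 179 and 212 that turned to 370 and 225 with median-ratio scaling and 308 and 236 with quantile normalization), and it was lower in KO-Leo than in WT-Leo (-1.67 ± 0.19, adjusted p = 0.00141). The call in wild type held under all 16 alternative settings that tested Osmr, and the call of the difference between genotypes held under 13 of 14, ending when replicate number entered as a block (adjusted p = 0.0518).

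Lifr (chr15:7090614-7197489, plus strand), the chain for leukemia inhibitory factor and a neighbour of Osmr on chromosome 15, went the other way. It was at 18.79 and 8.141 FPKM in WT-Leo, against 25.28, 35.08 and 33.92 FPKM in WT-saline. Its labelled knockout values were 24.96 and 30.78 FPKM in KO-Leo and 23.6 and 27.35 in KO-saline, so that WT-Leo was lowest and the other groups overlapped. Lifr fell in WT-Leo (log2 difference -1.26 ± 0.30, adjusted p = 0.039), a call that 12 of 17 alternatives ended. It ended without WT-Leo replicate 2 (-0.70, adjusted p = 0.221), without WT-saline replicate 1, 2 or 3 (0.057, 0.136 and 0.128), without either KO-saline library (0.0583 and 0.0581) or either KO-Leo library (0.0503 and 0.0501) and with the other settings given in the closing section.

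Il6st (chr13:112464070-112510086, plus strand), the chain that all these receptors share, was at 46.32 and 48.71 FPKM in WT-Leo, against 26.95, 33.86 and 34.02 FPKM in WT-saline. Il6ra (chr3:89864059-89913196, minus strand), the chain that binds IL-6, was at 19.44 and 15.44 FPKM in WT-Leo, against 28.62, 24.6 and 26.94 FPKM in WT-saline. The groups did not overlap for either gene, yet neither passed the test, with log2 differences of 0.58 ± 0.21 for Il6st (adjusted p = 0.126) and -0.59 ± 0.20 for Il6ra (adjusted p = 0.108). Among the labelled knockouts Il6st was at 21.46 and 34.59 FPKM in KO-Leo and 29.08 and 30.74 in KO-saline, and Il6ra at 21.03 and 33.09 in KO-Leo and 24.8 and 24.55 in KO-saline. There the groups overlapped, with the KO-Leo libraries on either side of KO-saline for both genes.

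FPKM is scaled by gene length, so the receptor chains can be set beside each other within a library. Lifr exceeded Osmr by 3.02 and 1.46 times in WT-Leo, against 23.1, 32.0 and 49.2 times in WT-saline. The same ratio was 29.5 and 19.9 in KO-Leo and 21.1 and 27.4 in KO-saline, inside or near the WT-saline range. Il6st exceeded Il6ra by 2.38 and 3.15 times in WT-Leo, against ratios of 0.942, 1.38 and 1.26 in WT-saline, and the ratio was 1.02 and 1.05 in KO-Leo and 1.17 and 1.25 in KO-saline. These pairs were chosen after their values were seen, and the ratios were not tested.

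**Figure D2:**
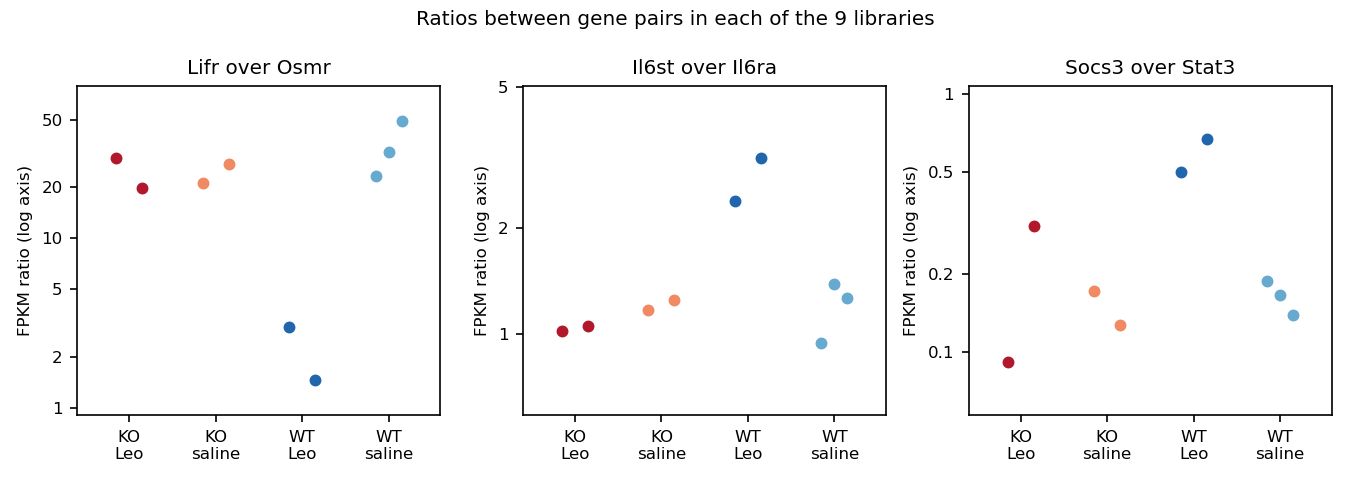
Ratio of FPKM values (y axes, logarithmic) for 3 pairs of genes in each library of KO-Leo, KO-saline, WT-Leo and WT-saline. Both WT-Leo libraries lie apart from the other 7 in all 3 panels, at 3.02 and 1.46 for Lifr over Osmr, 2.38 and 3.15 for Il6st over Il6ra and 0.496 and 0.67 for Socs3 over Stat3.

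The receptor-bound kinases showed smaller differences. Jak1 (chr4:101152367-101265282, minus strand) was at 30.5 and 22.7 FPKM in WT-Leo and 26.55, 22.61 and 25.88 in WT-saline, with 18.69 and 20.28 in KO-Leo and 22.64 and 24.09 in KO-saline. Jak2 (chr19:29251828-29313080, plus strand) was much lower, at 1.73 and 1.177 FPKM in WT-Leo and 1.76, 1.757 and 1.856 in WT-saline, with 1.455 and 1.195 in KO-Leo and 1.552 and 1.768 in KO-saline. Neither kinase passed the test in any of the 5 comparisons. For WT-Leo against WT-saline the 95% interval of the log2 difference ran from -0.29 to 0.44 for Jak1 and from -0.52 to 0.12 for Jak2, and KO-Leo lay below KO-saline for both with no overlap (differences of -0.25 ± 0.18 and -0.20 ± 0.16, adjusted p = 0.423 and 0.478). Jak1 shares its locus with Raver2 on the other strand, and whether the counting used strand is not stated.

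Stat3 (chr11:100885098-100939540, minus strand), the transcription factor at the centre of the pathway, was at 68.64 and 67.82 FPKM in WT-Leo, against 41.22, 31.94 and 38.83 FPKM in WT-saline. The labelled knockouts held it at 30.87 and 50.55 FPKM in KO-Leo and 35.11 and 30.55 in KO-saline. The WT-Leo libraries were the highest, followed by KO-Leo replicate 2, and the remaining 6 overlapped. Stat3 rose by 0.86 ± 0.22 in WT-Leo (adjusted p = 0.0473), 1.83 times the WT-saline mean. This call sat near the threshold, and it ended without either WT-Leo library (adjusted p = 0.08 and 0.201 without replicates 1 and 2), without WT-saline replicate 1, 2 or 3 (0.0836, 0.168 and 0.129) and without either KO-saline library (0.0643 and 0.0644). Stat3 ends where Stat5a, on the opposite strand, overlaps it, and Stat5a was at 1.766 to 5.292 FPKM over the 9 libraries, so that reads shared between the genes cannot be assigned.

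Socs3 (chr11:117966079-117970047, minus strand), the feedback inhibitor, had the largest log2 difference of the 8 tested genes in wild type. It was at 34.01 and 45.43 FPKM in WT-Leo, against 7.793, 5.318 and 5.411 FPKM in WT-saline. In the labelled knockouts it was at 2.815 and 15.58 FPKM in KO-Leo and 6.032 and 3.886 in KO-saline. Both WT-Leo libraries exceeded the other 7, and the KO-Leo libraries were the lowest and, after WT-Leo, the highest of all 9. Socs3 rose by 2.51 ± 0.49 in WT-Leo (adjusted p = 0.022), and it was lower in KO-Leo than in WT-Leo (-2.34 ± 0.54, adjusted p = 0.0237). The difference between the responses did not pass (-2.07 ± 0.73, adjusted p = 0.148), but passed without KO-Leo replicate 2 (-3.13, adjusted p = 0.00653). The wild-type call ended without WT-Leo replicate 2 (2.30, adjusted p = 0.155) or WT-saline replicate 2 or 3 (0.0819 and 0.078), and the call between KO-Leo and WT-Leo ended without KO-Leo replicate 1 (-1.28, adjusted p = 0.0645) or WT-Leo replicate 2 (-2.14, 0.118). Set against Stat3, Socs3 was at 0.496 and 0.67 of its FPKM in WT-Leo and 0.189, 0.166 and 0.139 in WT-saline.

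Socs1 (chr16:10782240-10785536, minus strand), the related inhibitor, was too low for the filter. It was at 2.118 and 0.9556 FPKM in WT-Leo, from 110 and 50 fragments, against 0.1055, 0.16 and 0.145 FPKM in WT-saline, from 5, 8 and 7 fragments. KO-Leo held 10 and 9 fragments and KO-saline 16 and 10, so that WT-Leo alone stood above 20. The WT-Leo mean was 11.2 times that of WT-saline. KO-saline, at 0.3346 and 0.2052 FPKM, lay above WT-saline without overlap. When no filter was applied, Socs1 was called higher in WT-Leo than in WT-saline (limma, 1.12 ± 0.17 on log2(FPKM + 1), adjusted p = 0.0454), among 202 genes called. It was called lower in KO-Leo than in WT-Leo (-1.05 ± 0.19, adjusted p = 0.0348). The difference between the responses did not pass for Socs1 (-1.21 ± 0.26, adjusted p = 0.0926). In the same fit Osmr kept its calls, and Socs3 (adjusted p = 0.0903), Stat3 (0.0998) and Lifr (0.11) lost theirs in wild type.

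The promoters of the 3 genes called higher in wild type are shown because STAT3 binds DNA at the palindrome TTCNNNGAA and SOCS3 is a known target. Each window runs from 250 bases before to 50 after the start of the RefSeq gene (build GRCm38.p6, the same assembly as mm10), and capitals mark a match to the palindrome, which reads the same on both strands. RefSeq and the GENCODE positions given above place some starts differently. The windows of Socs3, Osmr and Lifr lie wholly inside the GENCODE gene, and the bases before its GENCODE start were not searched for these.
Socs3 (chr11:117969317-117969616, minus strand): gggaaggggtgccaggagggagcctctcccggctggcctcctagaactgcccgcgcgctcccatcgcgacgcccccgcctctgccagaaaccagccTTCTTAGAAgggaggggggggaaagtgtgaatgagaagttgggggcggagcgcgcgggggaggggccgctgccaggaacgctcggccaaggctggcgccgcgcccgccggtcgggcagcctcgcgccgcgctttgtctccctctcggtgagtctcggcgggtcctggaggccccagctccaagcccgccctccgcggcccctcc
Osmr (chr15:6874264-6874563, minus strand): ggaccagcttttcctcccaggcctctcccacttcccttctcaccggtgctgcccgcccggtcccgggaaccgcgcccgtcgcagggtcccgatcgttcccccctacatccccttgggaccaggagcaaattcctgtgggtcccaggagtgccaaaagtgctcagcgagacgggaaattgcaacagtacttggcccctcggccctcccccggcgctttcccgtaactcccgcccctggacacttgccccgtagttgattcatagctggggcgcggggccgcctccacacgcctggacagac
Stat3 (chr11:100939491-100939790, minus strand): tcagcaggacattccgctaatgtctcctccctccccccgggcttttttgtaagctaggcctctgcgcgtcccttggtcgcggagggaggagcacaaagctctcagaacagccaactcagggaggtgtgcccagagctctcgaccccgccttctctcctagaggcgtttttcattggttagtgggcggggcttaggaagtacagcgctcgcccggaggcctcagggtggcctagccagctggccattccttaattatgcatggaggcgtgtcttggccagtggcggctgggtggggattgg
Windows were found for all 10 genes, 11 in all with a second start of Lifr. The palindrome occurred in 1 of them, that of Socs3, and in 8.3% of 32851 windows of mouse genes. In Socs3, TTCTTAGAA begins 154 bases before the RefSeq start, which is inside the gene by its GENCODE position. The stricter form TTCCNGGAA, each match of which is also a match of TTCNNNGAA, was in 1.15% of all windows and in none of the 11. The windows of Il6st, Lifr, Il6ra, Jak1, Jak2, Socs1 and Il6 held neither. A match is letters alone, binding was not measured, and elements outside these 300 bases were not searched.

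In the order of mean levels, Stat3 was the highest of the 10 in every group. In WT-saline it was followed by Il6st, Lifr, Il6ra and Jak1, and each neighbour in that order overlapped the next in its range over libraries. Socs3, Jak2 and Osmr followed in WT-saline, each apart from its neighbours, and Socs1 overlapped Il6. In WT-Leo the order was Stat3, Il6st, Socs3, Jak1, Il6ra, Lifr, Osmr, Socs1, Jak2 and Il6, and the neighbours that overlapped were Il6ra with Lifr and Socs1 with Jak2. In mean level Socs3 thus stood above Jak1, Il6ra and Lifr in WT-Leo and below each of them in KO-Leo, KO-saline and WT-saline.

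Leonurine was set against saline in the labelled knockouts to ask whether the response needs Adipor2. Of the 8 tested genes 0 were called (limma), and 0 had an unadjusted p under 0.05, where 2.1% of all genes were called, 0.603% higher and 1.49% lower. The split, 63 higher and 156 lower, turned to 116 and 91 with median-ratio scaling and 99 and 93 with quantile normalization. Jak1 and Jak2 were the 2 of 8 whose groups did not overlap, against 49.4% of all genes. The 95% intervals of the log2 differences ran from -0.78 to 1.66 for Socs3, from -0.27 to 0.79 for Stat3, from -0.35 to 0.50 for Osmr and from -0.61 to 0.85 for Lifr, and these do not show that the genes stayed level. The sign of Il6st (-0.13) turned with median-ratio scaling (0.09) and quantile normalization (0.04), and without KO-Leo replicate 2 the estimate of Socs3 was -0.62 in place of 0.44.

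Between KO-saline and WT-saline 0 of the 8 were called (limma), with 0 at an unadjusted p under 0.05, where 0.0191% of all genes were called, 0.00957% higher and 0.00957% lower. The groups overlapped for all 8, where 38.7% of all genes did not overlap, and the log2 differences lay between -0.28 (Lifr) and 0.08 (Osmr). Between KO-Leo and WT-Leo, Osmr and Socs3 were called lower, 2 of 8, where 5.25% of all genes were called lower, 6.99% higher and 12.2% in either direction. Il6st (-0.78 ± 0.23, adjusted p = 0.0542), Stat3 (-0.77 ± 0.24, 0.0635) and Lifr (1.09 ± 0.32, 0.0572) lay just outside the threshold, and 7 of the 8 did not overlap, against 52.1% of all genes. The comparisons share libraries with each other, WT-Leo entering those of leonurine in wild type and of genotype under leonurine, so their values are given side by side and not counted as separate support.

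**Figure D3:**
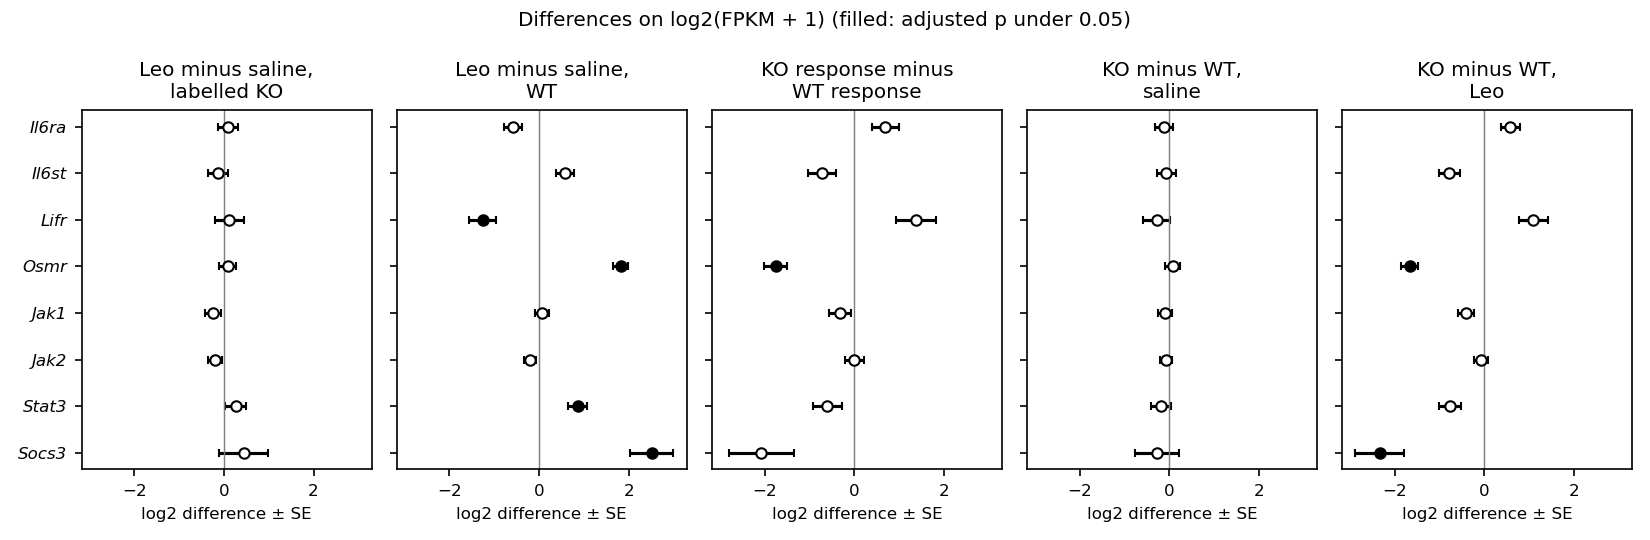
Differences on log2(FPKM + 1) with their standard errors (x axes) for the 8 tested genes in the 5 comparisons, filled where the adjusted p was under 0.05. The filled points are Lifr (-1.26), Osmr (1.82), Stat3 (0.86) and Socs3 (2.51) for leonurine in wild type, Osmr (-1.75) for the difference between responses, and Osmr (-1.67) and Socs3 (-2.34) between KO-Leo and WT-Leo.

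Markers of other cells were also compared between the groups, and within several lists they went in both directions. The 8 neutrophil markers summed to 64.68 and 151.5 FPKM in WT-Leo, against 10.56 to 49.6 in WT-saline, with 26.24 and 62.06 in KO-Leo and 6.59 and 15.22 in KO-saline. Of these, 4 lay higher in WT-Leo than in WT-saline without overlap (S100a8, S100a9, Ngp and Mmp8) and 0 lower. Over all tested genes 47.0% did not overlap between these groups, so 4 of 8 lies near that share. Ngp was called higher, and so was Mmp8, which passed the filter only through WT-Leo. The 6 hepatocyte markers summed to 33480 and 56450 FPKM in WT-Leo and 66410 to 72960 in WT-saline, with 5 lower without overlap and Ttr called lower, while Tat overlapped. Alb made up most of this sum, at 46280 and 26490 FPKM in WT-Leo and 53410 to 60070 in WT-saline. WT-Leo replicate 2, the lowest in the sum, was also the lowest of the 9 libraries for Lifr and Il6ra. Macrophage markers summed to 168.0 and 307.8 FPKM in WT-Leo and 239.2 to 287.8 in WT-saline, with all 7 overlapping and 0 called (limma).

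The 4 monocyte markers summed to 7.193 and 7.687 FPKM in WT-Leo and 3.669 to 4.246 in WT-saline. Chil3 alone was higher without overlap, at 3.772 and 4.343 FPKM in WT-Leo and 0.03483 to 0.3675 in WT-saline, and it too passed the filter only because of WT-Leo, while Fcgr1 was lower and Ly6c2 and Ccr2 overlapped. The 6 endothelial markers summed to 77.62 and 83.98 FPKM in WT-Leo and 73.35 to 79.31 in WT-saline, but 4 of them (Stab1, Stab2, Kdr and Pecam1) were lower without overlap, and Clec4g and Lyve1 higher, with Lyve1 called. The 6 stellate cell markers summed to 83.89 and 107.9 FPKM in WT-Leo and 86.76 to 94.4 in WT-saline, where Lrat and Pdgfrb were higher without overlap, Reln lower, and Pdgfrb called. As 47.0% of all tested genes did not overlap between these groups, the monocyte and stellate cell lists lay near that share. The 4 cholangiocyte markers summed to 55.76 and 146.7 FPKM in WT-Leo and 60.67 to 91.55 in WT-saline, with Epcam lower without overlap and 0 of 2 tested called. The 6 lymphocyte markers, none of which passed the filter, summed to 2.36 and 2.677 FPKM in KO-Leo, 0.7717 and 1.159 in KO-saline, 0.1988 and 0.8456 in WT-Leo and 0.7399 to 1.008 in WT-saline. Between KO-Leo and WT-Leo, where Osmr and Socs3 were called, Ttr and Kdr were called higher and Mmp8, Chil3, Lyve1 and Pdgfrb lower, and between KO-Leo and KO-saline Ngp was called higher. In whole liver, fewer cells of a type and less RNA per cell cannot be told apart, and the part of these cell types in the results was not tested.

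The related genes were taken from 6 lists. Among the other ligands of the family 4 of 8 (Il11, Lif, Osm and Il27) stayed below 1 FPKM in every library, and of the 3 tested 0 were called in any comparison (limma, at most 2 in a comparison at an unadjusted p under 0.05). Clcf1, a ligand of the ciliary neurotrophic factor receptor, was closest in wild type, at 1.283 and 1.028 FPKM in WT-Leo and 0.6663 to 0.9732 in WT-saline (0.26 ± 0.15, adjusted p = 0.304), and it passed the filter only through WT-Leo. Osm, the ligand of the chain that Osmr encodes, had at most 0.02965 FPKM in any library. Of the other receptors and the sheddases that cut them from the cell surface, 4 of 8 were tested and 0 were called for leonurine in wild type (limma, 0 at an unadjusted p under 0.05), with the interleukin-11 receptor Il11ra1 at -0.21 ± 0.18 (adjusted p = 0.515). Il11ra1 was called higher in KO-Leo than in WT-Leo (0.73 ± 0.20, adjusted p = 0.0431), a call that held under 5 of 16 alternatives.

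Of the other JAK and STAT genes 7 of 8 were tested, and 0 were called in any comparison (limma, at most 1 in a comparison at an unadjusted p under 0.05). Jak3, the kinase of leukocyte cytokine receptors, was at 7.744 and 7.812 FPKM in WT-Leo and 3.865 to 4.698 in WT-saline (0.71 ± 0.22, adjusted p = 0.0847). Of the other SOCS genes and brakes 13 of 14 were tested and 0 were called for leonurine in wild type (limma, 4 at an unadjusted p under 0.05), at a list median of -0.05, against -0.12 for all genes. The phosphatase Ptpn2, which acts on JAK and STAT proteins, came closest (0.84 ± 0.22, adjusted p = 0.0521), and Pias2, an inhibitor of STAT proteins, was at -0.45 ± 0.13 (adjusted p = 0.0695). Between KO-Leo and WT-Leo the phosphatases Ptpn1 (-0.83 ± 0.22, adjusted p = 0.0402) and Ptpn11 (-0.53 ± 0.15, 0.0457) were called lower, calls that held under 6 and 5 of 16 alternatives.

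Early genes that STAT3 induces and acute phase genes of the IL-6 type lie downstream. Of 12 early genes all were tested, and 1 was called higher for leonurine in wild type (limma, 6 at an unadjusted p under 0.05). Over all tested genes 1.9% were called higher there. The list median was 0.39, against -0.12 for all tested genes. Bcl3, a co-regulator of NF-kB, was at 71.17 and 36.19 FPKM in WT-Leo, against 9.831 to 19.19 in WT-saline (1.79 ± 0.40, adjusted p = 0.0341). Cebpd, a transcription factor of the acute phase, was at 16.65 and 8.42 FPKM in WT-Leo and 4.697 to 7.131 in WT-saline (0.98 ± 0.26, adjusted p = 0.0527), and both were called lower in KO-Leo than in WT-Leo (Bcl3 -2.08 ± 0.44, adjusted p = 0.0171, and Cebpd -1.56 ± 0.28, adjusted p = 0.00963). The other early genes did not pass in any comparison, and their estimates in wild type were of both signs. Fgl1 was higher without overlap, at 1490 and 1869 FPKM in WT-Leo and 608.5 to 824.3 in WT-saline (limma, 1.3 ± 0.34, adjusted p = 0.0537). So were Il4ra, at 7.476 and 7.592 FPKM against 4.248 to 5.792 (0.57 ± 0.18, 0.0885), and Pim1, at 20.73 and 10.25 FPKM against 3.91 to 6.609 (1.28 ± 0.4, 0.0893). Junb was higher without overlap, at 45.53 FPKM in each WT-Leo library and 17.02 to 37.37 in WT-saline. Fos was lower without overlap, at 1.945 and 1.955 FPKM in WT-Leo and 2.059 to 5.041 in WT-saline. Mcl1 was also lower without overlap, at 11.47 and 8.8 FPKM in WT-Leo and 12.29 to 14.38 in WT-saline. Across all tested genes, 47.0% did not overlap between WT-Leo and WT-saline. The Bcl3 call in wild type held under 10 of 17 alternatives.

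The list of 12 acute phase genes was chosen with earlier results of these data known. Of these, 10 were called higher and 0 lower in WT-Leo (limma), where 1.9% of all tested genes were called higher and 4.72% lower. The list median was 1.90, against -0.12 for all tested genes. Among the 10, the protease inhibitor A2m, was at 9.579 and 933 FPKM in WT-Leo and at most 0.2367 in the other 7 libraries, so it passed the filter only through the group where it was high and had to differ. Of the other 11 genes 9 were called higher in WT-Leo. Serpina3n, a protease inhibitor, was at 2647 and 6341 FPKM in WT-Leo and 335.9 to 511.4 in WT-saline, and it rose by 3.36 ± 0.35 (adjusted p = 0.00209). Lbp, which carries bacterial lipopolysaccharide, was at 158.9 and 159.4 FPKM in WT-Leo and 39.48 to 43.9 in WT-saline, and Lrg1, a secreted glycoprotein, at 2103 and 2791 FPKM in WT-Leo and 454.8 to 771.8 in WT-saline. Both rose (Lbp 1.93 ± 0.22, adjusted p = 0.00302, and Lrg1 2.13 ± 0.34, 0.0106), as did Cp, the copper carrier ceruloplasmin (1.25 ± 0.18, 0.00759). In the labelled knockouts 0 of the 12 were called (limma, 2 at an unadjusted p under 0.05, Lbp and Timp1), with a list median of 0.09, against -0.19 for all genes. Between the responses, Serpina3n (-2.92 ± 0.53, adjusted p = 0.0213) and Lrg1 (-2.48 ± 0.51, 0.0323) were called, calls that held under 8 and 7 of 15 alternatives. Between KO-Leo and WT-Leo 9 of 12 were called lower (limma), or 8 of the 11 other than A2m. Of all tested genes 5.25% were called lower there and 6.99% higher. The genes called lower included Serpina3n at -2.84 ± 0.39 (adjusted p = 0.00322), Lrg1 at -2.29 ± 0.37 (0.00691), Lbp at -1.33 ± 0.24 (0.00999) and Cp at -1.06 ± 0.20 (0.0112). Between KO-saline and WT-saline, and between KO-Leo and KO-saline, 0 genes of the 6 lists were called (limma, at most 2 of a list at an unadjusted p under 0.05). Hamp and Timp1 were the 2 genes not called in wild type. The wild-type count of 10 fell to 5 without WT-Leo replicate 2 and to 4 and 3 without WT-saline replicates 2 and 3, and the count of 9 fell to 2 without KO-Leo replicate 1.

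**Figure D4:**
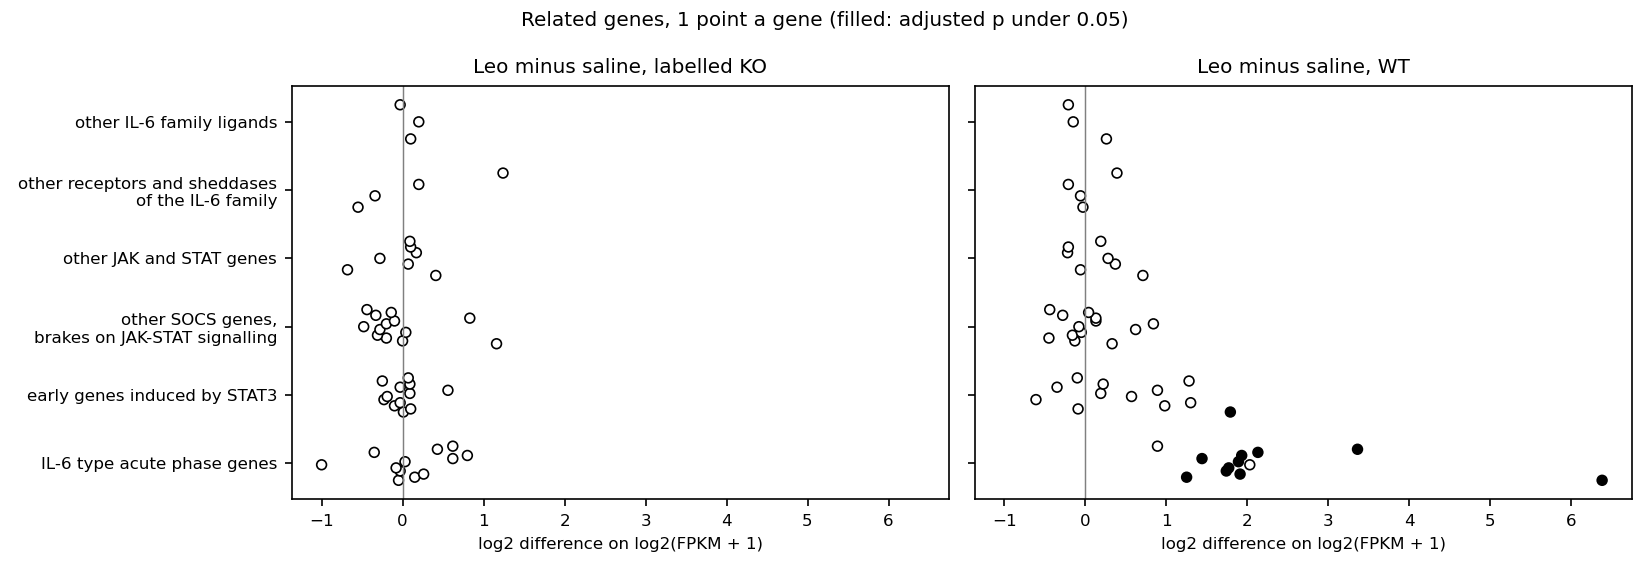
Difference between leonurine and saline on log2(FPKM + 1) (x axes) for the tested genes of 6 lists, in the labelled knockouts (left) and in wild type (right), with 1 point a gene, filled where the adjusted p was under 0.05. In wild type 10 of 12 acute phase genes and 1 of 12 early genes are filled, and in the labelled knockouts none is.

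Genes were also ranked by how closely their profile over the 9 libraries followed that of 4 of the genes, by the root mean square difference of log2(FPKM + 1) after each profile was centred on its mean. Nearest to Socs3 were Igdcc4 (0.358), Lrg1 (0.418) and the serum amyloid P component Apcs (0.453), where the profile of Socs3 itself had a root mean square of 1.194. Nearest to Stat3 (0.425) were the integrin chain Itgb3 (0.118), Qsox1 (0.157), an enzyme that forms disulfide bonds, and Pglyrp1 (0.163). Nearest to Lifr (0.567) were Car8 (0.147) and Acot12 (0.15), an acetyl-CoA hydrolase. Nearest to Il6ra (0.293) were Fchsd2 (0.105), Car5b (0.11) and Dnmbp (0.114).

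Levels showed what these distances rest on. Acot12 was at 22.8 and 11.09 FPKM in WT-Leo and 38.8 to 40.78 in WT-saline, with the same low library as Lifr, WT-Leo replicate 2. Igdcc4 was at 4.363 and 8.538 FPKM in WT-Leo and at most 0.8302 in the other 7 libraries. Pglyrp1 was at 1.44 and 1.128 FPKM in WT-Leo and at most 0.4567 in the other 7. Only tested genes were ranked, and both passed the filter only through WT-Leo, so their profiles had to be high there. Itgb3, Pglyrp1 and Car5b were below 4 FPKM throughout, where log2(FPKM + 1) compresses differences.

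**Figure D5:**
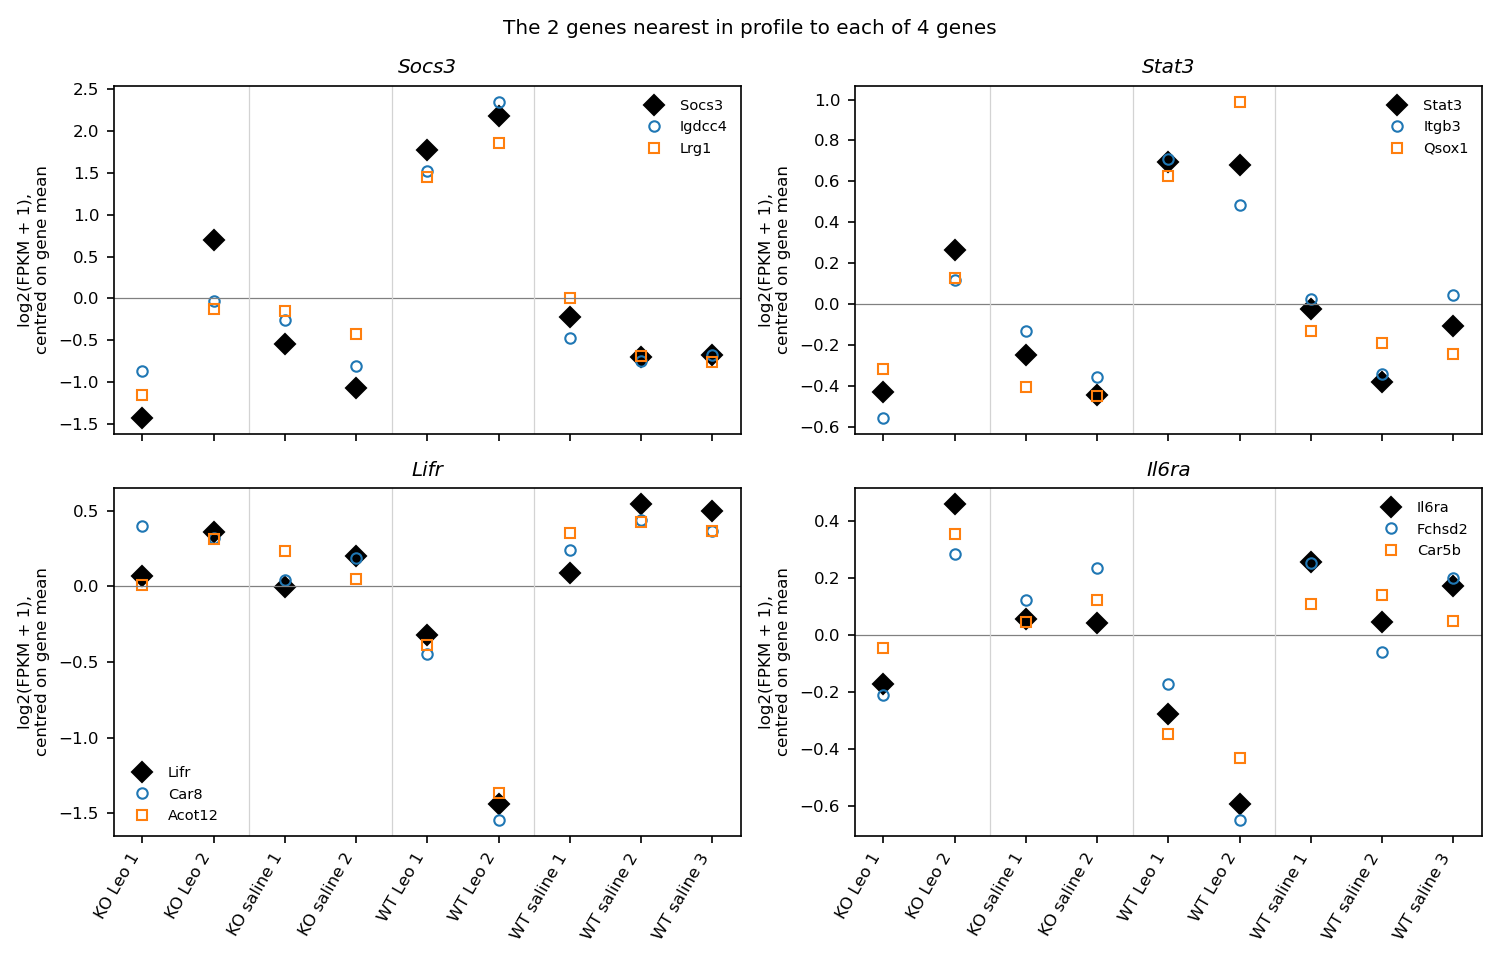
Centred log2(FPKM + 1) (y axes) of Socs3, Stat3, Lifr and Il6ra (diamonds) and the 2 genes nearest to each, over the 9 libraries (x axis). Socs3 and Stat3 are highest in the WT-Leo libraries and Lifr and Il6ra lowest there, and KO-Leo replicate 2 lies above KO-Leo replicate 1 for all 4.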

How the data were processed

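RNA sequencing of whole liver was analysed in 9 libraries of 4 groups, taken from the sample titles. The authors deposited FPKM values, and the submitters' processing notes list the build mm10 with HTSeq, HISAT2, fastp and R 3.2.0, and no role or order. No source used here gives the annotation, filters or strand setting. Library columns were matched by the RNA number in each sample's description, with 0 numeric columns left over. Because a gene's values in different libraries stand in whole-number ratios, fragments were recovered for 16857 of 16857 genes (tolerance 0.001), up to 1 factor per gene shared by the libraries. The floor of 3 fragments covers counting error only, and the 95% intervals are limma's, from the spread between libraries.

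Differences on log2(FPKM + 1) were tested with limma 3.58.1 in R 4.3.3 (two-sided, trended prior, 1 mean per group over all 9 libraries, 5 residual and 4.42 prior degrees of freedom). Genes with at least 1 FPKM in at least 2 libraries were tested, and p-values were adjusted by Benjamini-Hochberg over the 10451 genes. The scale understates changes of low genes. The step was tested on simulated data. Alternatives were a pseudocount of 0.1, no filter, a mean of at least 5 FPKM, median-ratio scaling, quantile normalization, fewer groups, a replicate block and each library left out. Named are the 10 genes, up to 4 called genes of each list and comparison by smallest p (otherwise up to 2 uncalled), and the 3 nearest profiles of 4 genes, of which 1 is not reported here. Fgl1, Il4ra, Pim1, Junb, Fos, Mcl1, Osm, Stat2, Socs2, A2m and the single markers were picked after their values were seen. The members and lists were chosen with earlier results of these data known. Gene positions are from the GENCODE annotation (GRCm38), promoters from RefSeq.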

Additional observations from a re-analysis of the deposited data

Results flagged for a closer look

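The response to leonurine differed between genotypes, by the test of the difference itself (limma, adjusted over 10451 genes), for 1 of the 8 tested pathway genes and for 2 of the related genes named. Osmr was at 0.8465 and 1.545 FPKM in KO-Leo, 1.117 and 0.9983 in KO-saline, 6.231 and 5.593 in WT-Leo and 0.6894 to 1.095 in WT-saline, a labelled knockout minus wild-type response of -1.75 (adjusted p = 0.00948, range over the alternatives 0.00683 to 0.0518). Serpina3n differed by -2.92 (adjusted p = 0.0213, range 0.00141 to 0.0839, call kept under 8 of 15 alternatives) and Lrg1 by -2.48 (adjusted p = 0.0323, range 0.0169 to 0.107, kept under 7 of 15). Among single libraries, both calls ended without KO-Leo replicate 1, either KO-saline library or WT-saline replicate 2 or 3, and that of Lrg1 also without WT-Leo replicate 2. KO-Leo differs from the other groups in Y-linked transcripts too, and sex and genotype cannot be told apart in this difference.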

How the results depend on the processing

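Of 638 values of the 8 tested genes under 17 alternative settings, 575 kept their direction and side of the threshold, 32 lost and 11 gained a call and 20 changed sign, each of the 20 for a difference that passed in neither fit. For leonurine in wild type, 4 of the genes were called, 2 with no filter, 1 with the replicate block and 1 to 3 without each library in turn (a group's lone library being assumed to vary like the others). For the difference between responses 1 was called, 0 at a mean of at least 5 FPKM (Osmr falls below it), 0 with the replicate block and 1 to 2 without each library. Between KO-Leo and WT-Leo 2 were called, 5 with quantile normalization, 1 with only those groups, 1 with the replicate block and 1 to 4 without each library. In the other comparisons 0 were called throughout. Lifr in wild type also lost its call with no filter (adjusted p = 0.11), the replicate block (0.147), only the groups compared (0.0713) and without both KO-Leo libraries (0.0504), Stat3 with no filter (0.0998) and the block (0.135), and Socs3 with no filter (0.0903) and the block (0.0956). Between KO-Leo and WT-Leo, Socs3 lost its call with no filter (0.0834), the block (0.0544) and only the groups compared (0.101).

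The labels do not say what the replicate numbers stand for. Deviations of same-numbered libraries from their group means correlated at 0.02 to 0.154 over genes, all positive but above 0.1 in 3 of 12 pairs. The 12 pairs are not separate values. In a group of 2 libraries the deviations mirror each other, so replicates 1 and 2 give the same correlation between such groups (0.032, 0.037 and 0.154). A pairing was not established, and whether calls lost under the block reflect one was not tested. Over all genes, leonurine in wild type called 692 genes, 202 with no filter, 75 with the block and 147 to 1351 without each library. In the labelled knockouts 219 were called, 136 at a mean of at least 5 FPKM, 112 with only those groups, 124 with the block and 92 to 317 without each library. The difference between responses called 391, 133 with no filter, 595 with median-ratio scaling, 102 with the block and 108 to 829 without each library. Under saline 2 were called, 1 with a pseudocount of 0.1, 1 at a mean of at least 5, 5 with quantile normalization, 0 without both KO-Leo libraries, 61 with only the groups compared, 0 with the block and 0 to 18 without each library. Under leonurine 1280 were called, 303 with only the groups compared and 335 to 1554 without each library. Scaling moved the median of all genes for leonurine in wild type from -0.123 to 0.004 (median-ratio) or 0.007 (quantile).

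Of the 12 acute phase genes, 10 were called for leonurine in wild type, 3 with no filter, 2 with the replicate block and 3 to 11 without each library, and between KO-Leo and WT-Leo 9, 4 with no filter, 2 with only the groups compared and 2 to 11 without each library.

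Without each library in turn, signs turned for leonurine in the labelled knockouts for Il6ra (-0.22 to 0.41), Stat3 (-0.08 to 0.61), Socs3 (-0.62 to 1.5), Lifr (-0.02 to 0.27), Osmr (-0.16 to 0.31) and Il6st (-0.46 to 0.20, and 0.09 with median-ratio scaling and 0.04 with quantile normalization). They turned likewise for Jak1 in wild type (-0.13 to 0.28), for Jak2 in the difference between responses (-0.16 to 0.16, and -0.0007 with a pseudocount of 0.1 and -0.02 with the replicate block) and between KO-Leo and WT-Leo (-0.23 to 0.09), and for Osmr under saline (-0.03 to 0.13, and -0.0026 with quantile normalization and -0.03 with the replicate block). The causes were not tested. Depth limits Il6 and Socs1.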

Other observations

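For 3 genes of the lists, 2 of them picked after their values were seen, libraries of a group lay far apart. Stat2 was at 7.757 and 24.75 FPKM in KO-saline, against 10.05 to 12.78 in WT-saline, and it was highest of the 9 libraries in KO-saline replicate 2. Cish, an inhibitor induced through STAT5, was at 0.6358 and 1.398 FPKM in KO-saline and 3.457 to 9.322 in WT-saline (-1.62 ± 0.47, adjusted p = 0.245, limma), and at 12.17 and 3.45 FPKM in WT-Leo. Socs2, also induced through STAT5, was at 2.988 and 0.1621 FPKM in WT-Leo, with WT-Leo replicate 1 the highest and WT-Leo replicate 2 the lowest of the 9 libraries, while Socs3 and Stat3 were high in both.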
